A study of Mus musculus with 8 samples.

Results

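Isg15, Usp18, Uba7, Ube2l6 and Herc6 encode the conjugation pathway of ISG15, and all 5 genes were found by name among the 11996 genes with a normalized expression signal in mouse peritoneal macrophages. The groups, with 2 samples each in the labels, were Ptpn1-/- macrophages with IL-10 at 100 ng/ml for 4 h, Ptpn1-/- macrophages with mock treatment, wildtype macrophages with the same IL-10 treatment and wildtype macrophages with mock treatment. All cells came from C57BL/6 mice, had been drawn into the peritoneum with thioglycolate and had adhered to plastic for 24 h. Ptpn1 encodes the tyrosine phosphatase PTP1B, which acts on receptors and JAK kinases, and IL-10 signals through JAK1, TYK2 and STAT3. Neither the age of the mice, the number of mice behind a sample nor the exon removed by the knockout is stated in the labels.

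ISG15 is a ubiquitin-like protein that is joined to lysines of other proteins. UBA7 activates it, UBE2L6 carries it, and in mouse HERC6 is the main ligase that transfers it, a role that HERC5 has in human cells. USP18 cleaves ISG15 from its targets and, apart from that activity, binds the type I interferon receptor chain IFNAR2 and limits signalling through JAK1. The genes are known as interferon-inducible in macrophages, through a complex with STAT2 and IRF9 that binds the interferon-stimulated response element in their control regions.

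The values are the authors' normalized signal, 1 value for each gene and group, in a table whose columns share the same total of 26705598 units. No value per sample was analysed, so a difference between groups could not be set against the spread between replicates, no p-value is given, and sequencing depth is unknown. Groups were compared by the log2 ratio of their signals after adding a pseudocount of 1 ppm (26.7 units, a millionth of the column total), over the 11400 genes whose mean signal reached 1 ppm. All 5 members passed this filter, and at 83.0 to 1056 units they lay in the low to middle range of the table. Differences were counted from 2-fold, where the log2 ratio reaches 1 or -1. The comparisons share columns and are not independent of each other. Ptpn1 itself stood at 5392 units in the knockout with IL-10, 3837 in the knockout with mock, 6736 in wild type with IL-10 and 4961 in wild type with mock, so its signal is a weak check of the genotype. Socs3, a feedback inhibitor induced by STAT3, had an IL-10 log2 ratio that came to 3.46 in the knockout and 3.28 in wild type.

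RefSeq windows on GRCm38.p6, from 250 bases before to 50 after the start of the gene, were matched for 4 of the 5 members: Isg15, Uba7, Ube2l6 and Herc6. The windows of Isg15 (chr4:156200769-156201068, minus strand) and Ube2l6 (chr2:84798578-84798877, plus strand) are printed, the first because Isg15 had the largest genotype ratio with IL-10 and the second because Ube2l6 also separated by genotype without a match. They run 5′ to 3′ on the strand of the gene, and capitals mark matches to GAAANNGAA, the core of the interferon-stimulated response element, searched on both strands.
Isg15: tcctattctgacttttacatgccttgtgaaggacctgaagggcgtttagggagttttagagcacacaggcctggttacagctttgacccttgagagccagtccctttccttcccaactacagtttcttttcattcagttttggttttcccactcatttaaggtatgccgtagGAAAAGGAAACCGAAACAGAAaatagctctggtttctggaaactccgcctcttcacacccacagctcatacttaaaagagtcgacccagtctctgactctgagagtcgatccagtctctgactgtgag
Ube2l6: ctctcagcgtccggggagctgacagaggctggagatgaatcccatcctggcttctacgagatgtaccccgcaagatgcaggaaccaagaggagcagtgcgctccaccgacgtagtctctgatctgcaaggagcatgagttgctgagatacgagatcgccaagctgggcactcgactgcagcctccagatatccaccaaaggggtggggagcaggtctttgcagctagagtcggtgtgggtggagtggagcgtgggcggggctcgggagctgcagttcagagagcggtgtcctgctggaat
The Isg15 window held 3 matches that overlap each other and begin 78, 72 and 66 bases before the start of the gene, and they form the single run of capitals. No match was found in the windows of Uba7, Ube2l6 or Herc6, and a STAT site of the form TTCNNNGAA, also searched on both strands, was found in none of the 4. Of all 32817 windows, 8.55% held the interferon core and 8.29% the STAT form. Among 19 windows of interferon-inducible genes outside the pathway, 12 held the core (63.2%). A match describes letters in the window and does not show binding.

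Isg15 and Usp18 were over 2-fold higher in knockout than in wild-type macrophages with IL-10, Ube2l6 and Herc6 were higher by a smaller ratio, and Uba7 differed least. Without IL-10 Usp18 was the member above 2-fold. Within knockout macrophages, Isg15 and Herc6 stood higher with IL-10 than with mock, whereas Usp18 stood lower with IL-10. In wild type these genes went the same way with smaller log2 ratios, 0.30 for Herc6, 0.07 for Isg15 and -0.19 for Usp18. No member differed by 2-fold with IL-10 in either genotype.

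**Figure D1:**
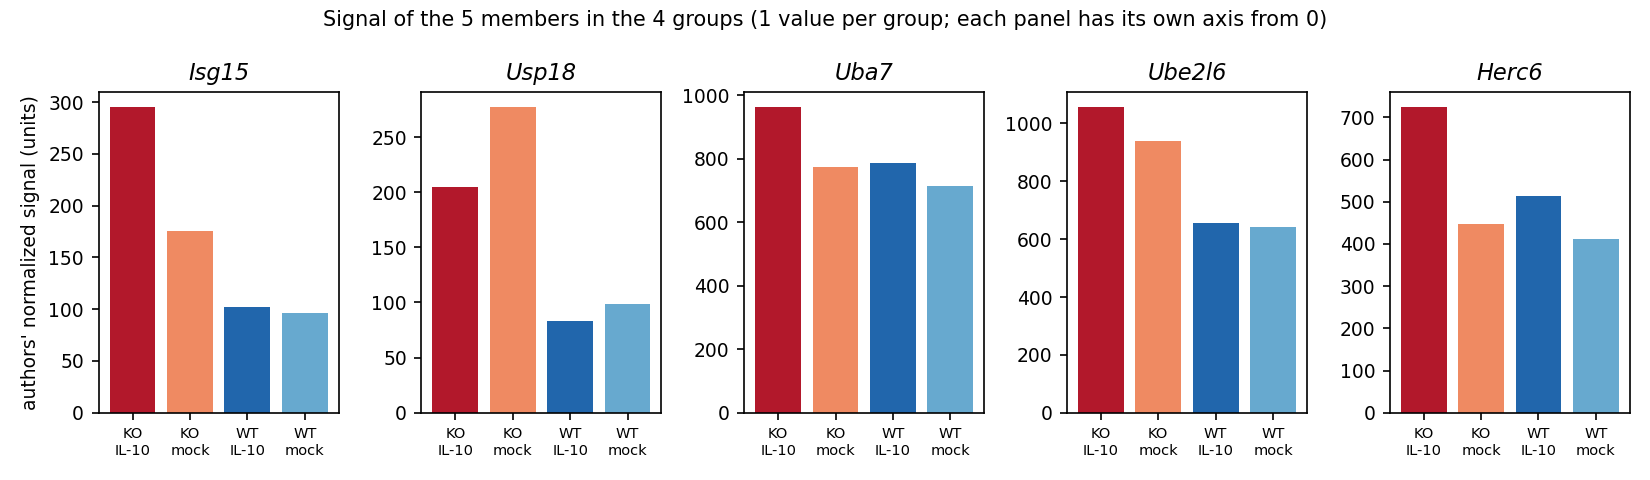
Authors' normalized signal (y axis, units, from 0) of each member in the 4 groups (x axis); a bar is 1 value per group, so there is no error bar. Isg15 is highest in the knockout with IL-10 at 295 units, and Usp18 is highest in the knockout with mock at 277 units.

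The modifier itself, Isg15 (ENSMUSG00000035692; mm9 chromosome 4, 155573533 to 155574927, minus strand), stood at 295 units in the knockout with IL-10 and 175.5 in the knockout with mock, against 102.5 in wild type with IL-10 and 96 in wild type with mock. Both knockout values lay above both wild-type values, and the IL-10 value was the higher of the pair in each genotype. The genotype log2 ratio was 1.32 with IL-10, the 33rd highest of the 11400 genes, and 0.72 with mock, the 90th highest. The IL-10 log2 ratio was 0.67 in the knockout and 0.07 in wild type, a difference of 0.60 that ranked 54 from the top. The wild-type value turned to -0.012 with the trend of ratios over transcript length subtracted. In units of signal, IL-10 went with 119.5 units more in the knockout and 6.5 more in wild type.

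Usp18 (ENSMUSG00000030107; mm9 chromosome 6, 121195924 to 121220934, plus strand), which encodes the protease that removes ISG15, stood at 205 units in the knockout with IL-10 and 277 in the knockout with mock, against 83 in wild type with IL-10 and 98.5 in wild type with mock. Both knockout values were again above both wild-type values, but here the IL-10 value was the lower of the pair in each genotype. The genotype log2 ratio was 1.08 with IL-10, the 61st highest of the 11400 genes, and 1.28 with mock, the 20th highest. The IL-10 log2 ratio was -0.39 in the knockout, 323 from the bottom of the ranking, and -0.19 in wild type. The opposite order of Isg15 and Usp18 under IL-10 changed their balance within a column. Isg15 signal divided by Usp18 signal was 1.44 in the knockout with IL-10 and 0.634 in the knockout with mock, against 1.23 in wild type with IL-10 and 0.975 in wild type with mock. The lowest and the highest of these ratios were thus both in knockout columns. The signals were not divided by transcript length, so the ratio can be read only across columns. A ratio below 1 does not mean that Isg15 had the lower level.

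Ube2l6 (ENSMUSG00000027078; mm9 chromosome 2, 84638985 to 84650333, plus strand), the gene of the conjugating enzyme, stood at 1056 units in the knockout with IL-10 and 940 in the knockout with mock, against 656 in wild type with IL-10 and 641 in wild type with mock. Its values separated by genotype and differed little by treatment. The genotype log2 ratio was 0.67 with IL-10 and 0.53 with mock, which ranked 149 and 201 from the top. The IL-10 log2 ratio was 0.16 in the knockout and 0.03 in wild type, where it turned to -0.039 with the length trend subtracted.

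Herc6 (ENSMUSG00000029798; mm9 chromosome 6, 57530986 to 57615130, plus strand), the gene of the ligase, had the other pattern, with values that separated by treatment. It stood at 724 units in the knockout with IL-10 and 448 in the knockout with mock, against 513.5 in wild type with IL-10 and 412 in wild type with mock. The IL-10 log2 ratio was 0.66 in the knockout and 0.30 in wild type, and the difference of 0.36 ranked 304 from the top. Herc6 had the highest IL-10 log2 ratio of the members in wild type. The genotype log2 ratio was 0.47 with IL-10 and 0.11 with mock.

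Uba7, the gene of the activating enzyme (ENSMUSG00000032596), varied least in its genotype ratios. It stood at 962.5 units in the knockout with IL-10 and 773 in the knockout with mock, against 788 in wild type with IL-10 and 715.5 in wild type with mock. The genotype log2 ratio was 0.28 with IL-10 and 0.11 with mock, and the IL-10 log2 ratio was 0.31 in the knockout and 0.13 in wild type. The knockout value with mock lay below the wild-type value with IL-10. The row gives mm9 chromosome 9, 107878639 to 107879297 on the plus strand, a span of 659 bases, whereas the gene spans 8490 bases in RefSeq on GRCm38. The other members' spans differed by at most 173 bases between the table and RefSeq, and no other row of the table overlapped a member. For Uba7 the overlap was checked on the 659 bases of its row and not on the whole gene.

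**Figure D2:**
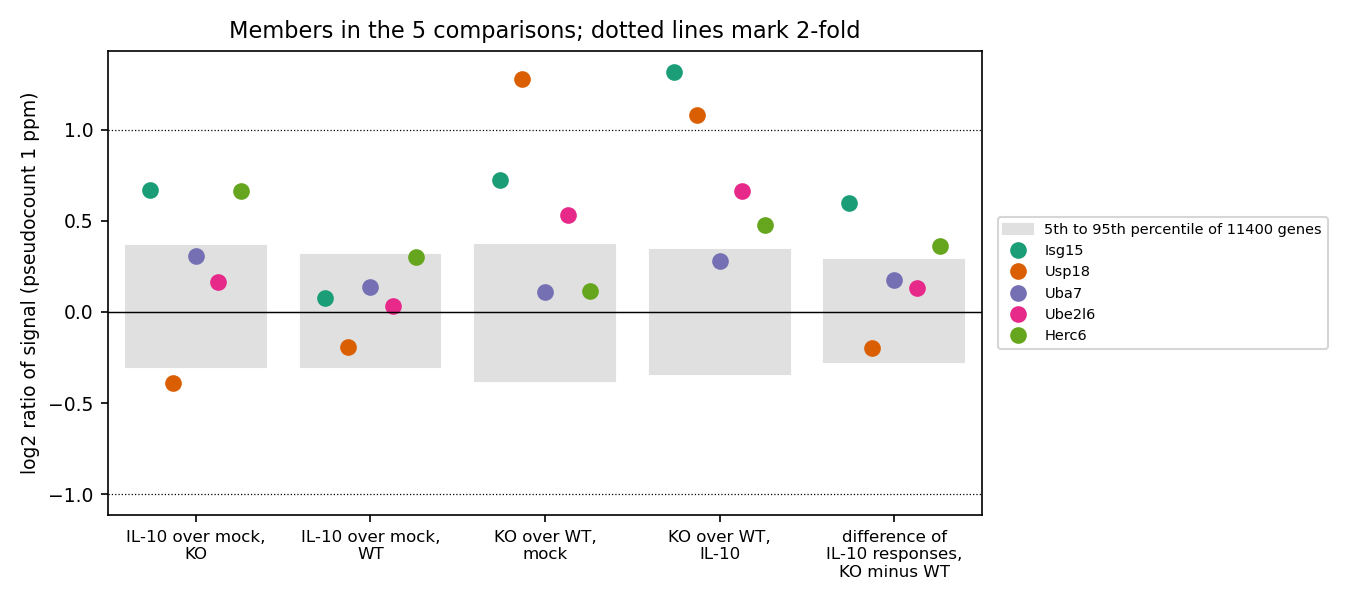
Log2 ratio of signal (y axis) of the 5 members in the 5 comparisons (x axis), with grey boxes from the 5th to the 95th percentile of the 11400 genes and dotted lines at 2-fold. Isg15 and Usp18 lie above 2-fold for knockout over wild type with IL-10, Usp18 also with mock, and Usp18 lies below 0 in both IL-10 comparisons.

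With IL-10, 2 of 5 members passed 2-fold upward in the knockout, where 0.596% of the 11400 genes were, and with mock 1 of 5, where 0.325% were. None of the members was 2-fold lower, against 0.0789% of genes with IL-10 and 0.105% with mock. In the IL-10 response no member passed 2-fold in either genotype, while 0.877% of genes were that much higher in the knockout and 0.465% in wild type, and 0.0175% that much lower in each. The difference between the responses also passed 2-fold for no member, against 0.0965% of genes upward and 0.0351% downward. The members' median log2 ratio was 0.67 for genotype with IL-10, 0.53 for genotype with mock, 0.31 for IL-10 in the knockout and 0.07 for IL-10 in wild type, beside medians over all genes of 0.01, 0.02, -0.01 and 0.00 in the same order. For the difference between responses it was 0.17, beside -0.004 over all genes. The counts turned on Isg15 and Usp18, whose low signals make them depend on the pseudocount: with 4 ppm neither was 2-fold higher in either genotype comparison. With the trend over transcript length subtracted, Usp18 stood at 0.996 with IL-10, so 1 member was counted there instead of 2. Without a pseudocount the knockout to wild-type ratio of signals was 2.88 with IL-10 and 1.83 with mock for Isg15, and 2.47 with IL-10 and 2.81 with mock for Usp18.

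Levels of different genes can be compared only per length. On signal per kilobase of the longest GENCODE M21 transcript, the order of levels in the knockout with IL-10 was Ube2l6 (677 units per kb), Isg15 (390), Uba7 (266), Herc6 (152) and Usp18 (116). In the knockout with mock it was Ube2l6 (603), Isg15 (232), Uba7 (214), Usp18 (156) and Herc6 (94.0). In wild type with IL-10 it was Ube2l6 (421), Uba7 (218), Isg15 (136), Herc6 (108) and Usp18 (46.9), and in wild type with mock Ube2l6 (411), Uba7 (198), Isg15 (127), Herc6 (86.4) and Usp18 (55.6). On these lengths Isg15 stood above Uba7 in the knockout columns and below it in the wild-type columns. Uba7 was divided by a transcript of 3620 bases, whereas its row spans 659 bases. If only those bases were counted, its level per kilobase would be higher in every column. The place of Uba7 in each order, and its crossing with Isg15, therefore depend on the length chosen. Which neighbours in these orders differ beyond replicate spread cannot be told from 1 value per group.

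Each member was set beside its relatives in the ubiquitin system. With IL-10 the member had the higher knockout to wild-type log2 ratio in every one of the 13 pairs. Most pairs share a member with other pairs, so they are not independent of each other. The proteases set beside Usp18 (1.08) were Usp5 (0.01), Usp13 (0.00), Usp14 (0.07), Usp16 (0.08) and Usp21 (0.17). Uba1 and Uba6, which encode the activating enzymes of ubiquitin, had log2 ratios of -0.12 and -0.07, beside 0.28 for Uba7. Ube2l3, the closest relative of Ube2l6, stood at 13789 units in the knockout with IL-10 and 14029 in the knockout with mock, against 14199 in wild type with IL-10 and 14642 in wild type with mock. Its log2 ratio with IL-10 was -0.04, beside 0.67 for Ube2l6. The relatives of Herc6 ranged from -0.38 for Herc1 to 0.15 for Herc3, and the ubiquitin gene Ubb had 0.03, beside 1.32 for Isg15. Rps27a was not analysed here. Ubiquitin genes are near-identical in their repeats, so their reads may be split between them.

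With mock the member was the higher in 11 of the 13 pairs. Ubb had a higher genotype log2 ratio than Isg15, 1.05 beside 0.72, through a value of 55131 units in the knockout with mock against 26635 in wild type with mock. Herc3 was level with Herc6, at 0.12 and 0.11. In the IL-10 response the member was the higher in 8 of the 13 pairs in each genotype. In the knockout all the other pairs were those of Usp18. In wild type they were those of Usp18, except the pair with Usp13, and the pair of Isg15 with Ubb. For the difference between the responses the member was the higher in 9, and the other pairs were again of Usp18. Under IL-10 treatment Herc3 and Herc6 stood on opposite sides of 0: the IL-10 log2 ratio of Herc3 was -0.39 in the knockout and -0.43 in wild type, beside 0.66 and 0.30 for Herc6.

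**Figure D3:**
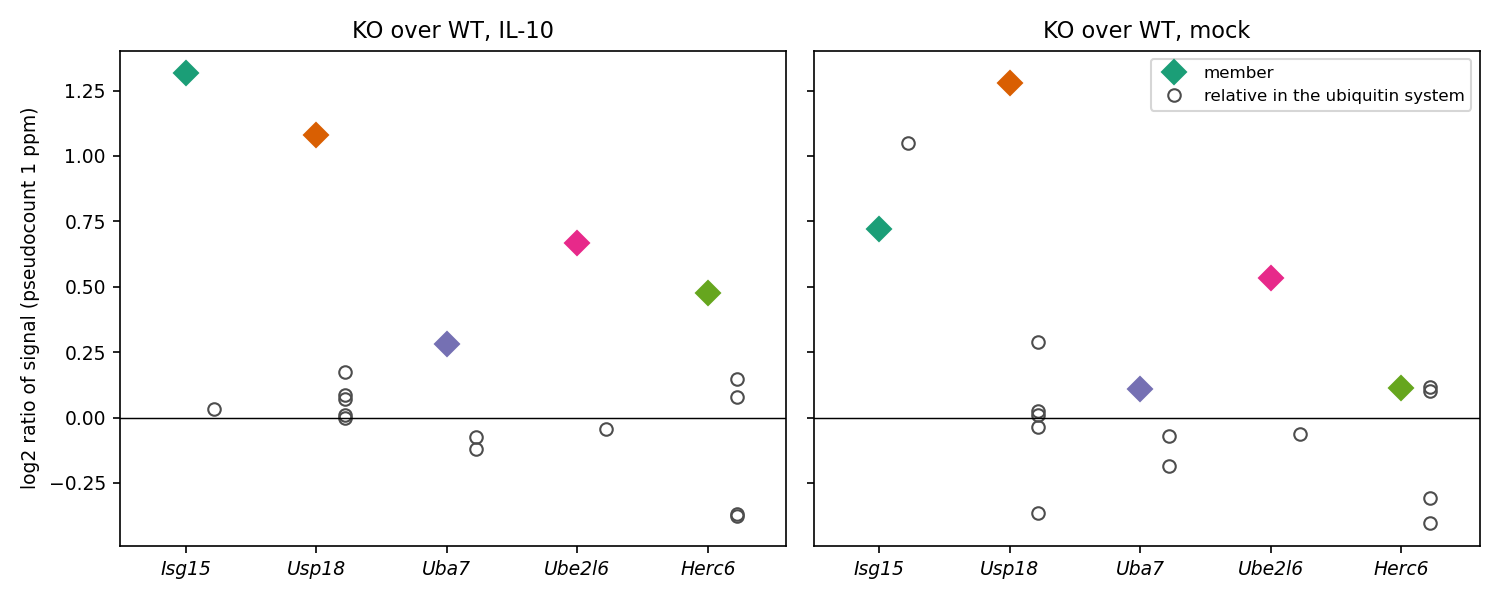
Log2 ratio of signal, knockout over wild type (y axis), of each member (filled diamond) and of its relatives in the ubiquitin system (open circles), with IL-10 in the left panel and with mock in the right. With IL-10 every diamond lies above its circles, and with mock Ubb at 1.05 lies above Isg15 at 0.72.

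The genes of other ubiquitin-like modifiers were set beside the members in the same way. Of 31 genes of the NEDD8, SUMO, UFM1, FAT10 and URM1 systems with a value, none was 2-fold higher or lower in any of the 5 comparisons. That is near the share over all genes, of which at most 0.877% were higher and 0.105% lower in a comparison. With IL-10 their genotype log2 ratios ran from -0.21 for Pias3, a SUMO ligase gene, to 0.19 for Ube2f, which encodes a NEDD8 conjugating enzyme, with a median of 0.04. With mock they ran from -0.16 for Senp6, a SUMO protease gene, to 0.36 for Rbx1, a subunit of cullin ligases, with a median of 0.10. All 5 members lay above this range with IL-10, whereas with mock Uba7 and Herc6, at 0.11 each, lay inside it. Ubd, which encodes FAT10, and Ufl1, the ligase gene of UFM1, were not analysed here.

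Other enzymes of the pathway varied little by genotype with IL-10. The 7 other ligases and proteases reported to act on ISG15 had genotype log2 ratios from -0.17 to 0.17 there, with a median of 0.07. None of them passed 2-fold in any comparison. Over all genes at most 0.877% passed upward and 0.105% downward in a comparison, so that count is near the share of all genes. Trim25, a ligase for ISG15 and ubiquitin, stood at 4450 units in the knockout with IL-10 and 4071 in the knockout with mock, against 4007 in wild type with IL-10 and 3916 in wild type with mock. Arih1, a ligase of the RBR type, was lower in the knockout with IL-10, with a log2 ratio of -0.17, and Usp21, a ubiquitin protease gene, had 0.17.

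Upstream, the interferon signalling genes included some with ratios like those of the members. Of 10 genes with a value, 1 was at least 2-fold higher in the knockout with IL-10, where 0.596% of all genes were. It was Irf7, which encodes an interferon regulatory factor that is itself interferon-inducible. Irf7 stood at 2517 units in the knockout with IL-10 and 2124 in the knockout with mock, against 718 in wild type with IL-10 and 625 in wild type with mock, so it separated by genotype as Ube2l6 did, with larger ratios of 1.77 with IL-10 and 1.72 with mock. Genes of the complex that binds the response element varied with both genotype and treatment. Stat2 stood at 1511 units in the knockout with IL-10 and 832.5 in the knockout with mock, against 951 in wild type with IL-10 and 716 in wild type with mock. Its IL-10 log2 ratio was 0.84 in the knockout and 0.40 in wild type. Irf9 had a genotype log2 ratio of 0.65 with IL-10 and 0.40 with mock. Socs1, a feedback inhibitor of interferon signalling, had 0.70 with IL-10 at low signal, 107.5 units in the knockout and 56 in wild type. The receptor chains Ifnar1 and Ifnar2 and the kinases Jak1 and Tyk2 lay between -0.11 and 0.05 in genotype log2 ratio with IL-10. With mock Ifnar2 had 0.33, at 6218 units in the knockout and 4958 in wild type, while Ifnar1 had -0.04, Jak1 -0.17 and Tyk2 -0.15. The interferon gene Ifnb1 was not analysed here.

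Of 17 genes whose proteins are reported substrates of ISG15, 2 passed 2-fold upward in the knockout with IL-10, where 0.596% of all genes did. They were Ifit1 (log2 ratio 2.24) and Mx1 (1.11), both antiviral effectors. Both are among the 5 substrates that also stand on the list of interferon-inducible genes. The 12 other substrates had a median of -0.01, and none of them passed 2-fold, a count near the share of all genes.

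**Figure D4:**
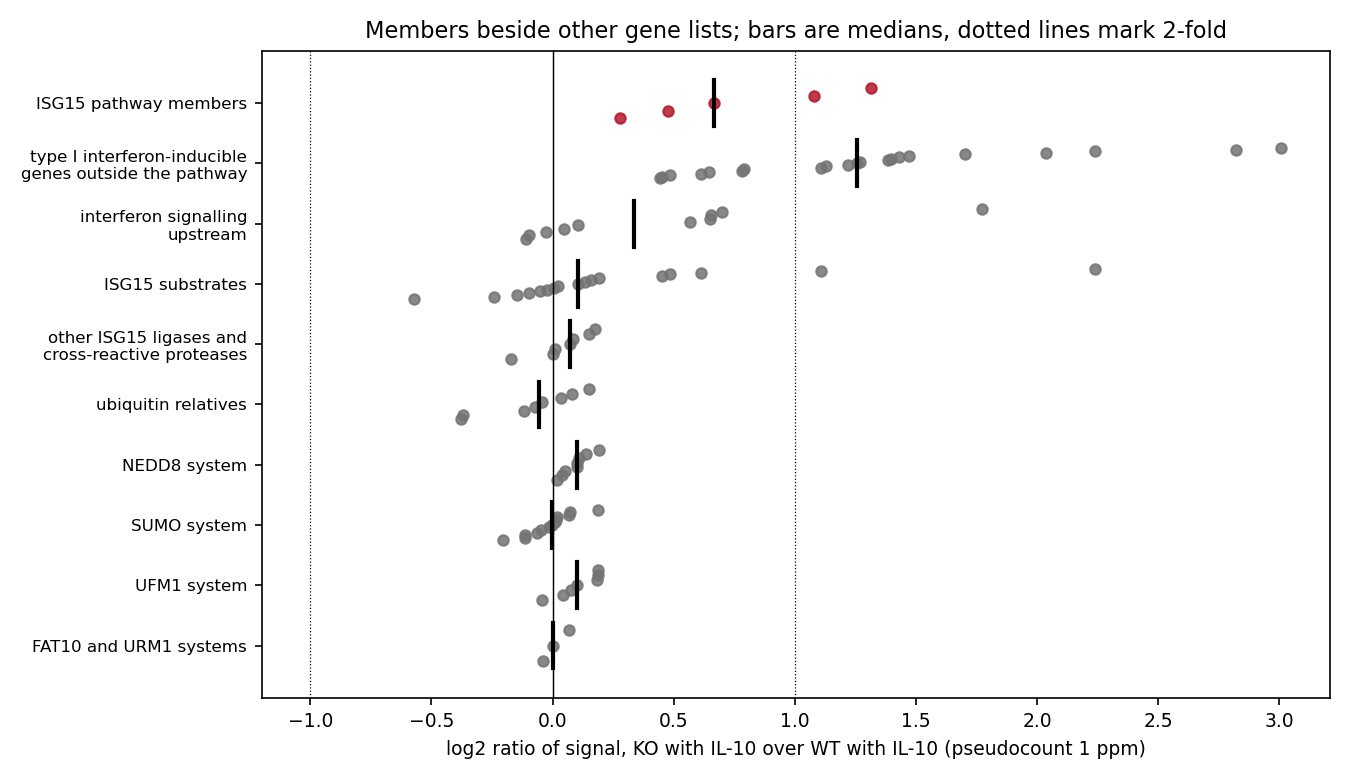
Log2 ratio of signal, knockout with IL-10 over wild type with IL-10 (x axis), of single genes (points) in 10 lists (rows), with the median of each list as a bar and dotted lines at 2-fold. The 5 members run from 0.28 to 1.32, the interferon-inducible genes outside the pathway from 0.45 to 3.01, and the NEDD8, SUMO, UFM1, FAT10 and URM1 genes from -0.21 to 0.19.

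Of 22 interferon-inducible genes outside the pathway with a value, 21 passed the filter, and Ifi44, at 29.5 units or less in each group, did not. The 21 had a median genotype log2 ratio of 1.26 with IL-10 and 0.89 with mock, above the members' medians. For Isg15, 9 of the 21 had a larger ratio with IL-10 and 12 a smaller one, so the modifier lay near their middle. Uba7 lay below all 21, Herc6 below 19 and Ube2l6 below 16. Usp18 lay in their lower part with IL-10, where 14 of 21 had a larger ratio, and high among them with mock, where 5 had a larger one. In the IL-10 response of the knockout, Usp18 stood apart, since all 21 had a ratio above 0, with Rsad2 the lowest at 0.00, while Usp18 had -0.39. In wild type, Rsad2, an antiviral enzyme gene, lay below Usp18, at -0.53 beside -0.19. The difference between the genotypes' responses was likewise above 0 for all 21 and -0.20 for Usp18. None of these contrasts has a replicate check.

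The profile of each member over the 4 columns was compared with those of other genes by the distance between log2 signals centred on their own means, among genes with a mean of at least 5 ppm. Nearest to the members' median profile were Psmb9, an immunoproteasome subunit gene, at a distance of 0.06, Plau (0.07), Cd74 (0.09), Bst2 (0.09) and Dusp1 (0.09). Psmb9 and Bst2 were also the nearest to Ube2l6, at 0.03 and 0.05. Batf2 and Pyhin1 were nearest to Isg15 (0.11 and 0.12), Nrbf2 and B4galt3 to Uba7 (0.02 and 0.02), and Zranb3 and Ppp1r3d to Herc6 (0.01 and 0.06). Usp18 had no gene that near: its nearest row, which has an identifier without a name, was at 0.35, and the next, Lgals3, was at 0.36 and lies among the highest signals of the table, where values are tied. Among the members themselves, Uba7 and Herc6 were nearest to each other (0.29) and Usp18 and Herc6 farthest apart (1.21). With 4 columns many genes share a profile by coincidence of a few values.

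Markers of other cells moved with genotype, and their part in the members' differences was not tested. In bulk RNA, fewer cells of a type and less RNA per cell cannot be told apart. Macrophage markers were present throughout, with a sum over 7 genes of 323905 units in the knockout with IL-10 and 323829 in the knockout with mock, against 280727 in wild type with IL-10 and 283078 in wild type with mock. Cd68 makes up most of that sum and is tied between treatments, at 272612 units in both knockout columns and 226524 in both wild-type columns. Without Cd68 the sum ran the other way, 51293 and 51216.5 units in the knockout with IL-10 and mock against 54203 and 56553.5 in wild type. The 3 resident peritoneal macrophage markers with a value summed to 2292 and 2338 units in the knockout with IL-10 and mock, against 1792 and 1766 in wild type. Most of that was Cxcl13, and without it the sum was 543 and 572.5 units in the knockout against 745 and 821.5 in wild type. Gata6, the transcription factor gene that defines these cells, had a genotype log2 ratio of -0.66 with IL-10 and -0.74 with mock. The other 2 markers were higher in the knockout, Icam2 with 0.34 and 0.37 and Cxcl13 with 0.73 and 0.88. The lower sum without Cxcl13 therefore came from Gata6 alone. Of 6 monocyte markers, 3 passed 2-fold upward in the knockout with IL-10 and 2 with mock, where 0.596% and 0.325% of all genes did. These were Ly6c2 and Chi3l3 under both treatments and Plac8 with IL-10. In wild type with IL-10 and mock, Ly6c2 (13.5 and 15 units) and Plac8 (14 and 10) lay below 1 ppm. Both passed the filter only through their knockout values. The sum of the 6 markers ran the other way, because Fn1 makes up most of it. It was 58562 and 62340 units in the knockout with IL-10 and mock against 73134 and 72682 in wild type. Without Fn1 the sum was 2892 and 2250 units in the knockout against 1443 and 991 in wild type. Of 9 mesothelial and fibroblast markers, 1 was at least 2-fold lower in the knockout under each treatment. Over all genes that share was 0.0789% with IL-10 and 0.105% with mock. With IL-10, 8 of the 9 had a genotype log2 ratio below 0 and none above, with a median of -0.60. With mock all 9 lay below 0, with a median of -0.62. The 9 markers summed to 20231 and 20354 units in the knockout against 32346 and 33734 in wild type. Mast cell markers, 5 genes, summed to 525 and 456.5 units in the knockout against 337.5 and 316 in wild type. The defining plasmacytoid dendritic cell genes Siglech and Ccr9, all 6 T cell markers and all 5 natural killer cell markers had no row among those analysed. Tcf4, Irf8 and Il3ra, the other 3 plasmacytoid markers, had values. They summed to 5909 and 5904 units in the knockout with IL-10 and mock, against 5921.5 and 5740.5 in wild type. The sums of the few remaining B cell, conventional dendritic cell, neutrophil and eosinophil markers did not exceed 520 units in any group.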

How the data were processed

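RNA sequencing signal from 8 samples in 4 groups of 2 was analysed as 4 columns. The authors deposited 1 normalized signal per gene and group, per the file headers. RSEM, Bowtie and mm9 are named in the submitters' processing notes, and no source used here gives their roles, versions, the normalization or the annotation. Equal column totals remove depth differences and a shift shared by most genes. Single values also recur exactly between columns. Lgals3, for example, stood at 272813 units in both knockout columns and 136851.5 in both wild-type columns. Whether the normalization matched more than the totals was not tested, so medians near 0 over all genes may be set by it. Values are multiples of 0.5 and not CPM. The planned limma fit needs a value per library and was not run. Instead log2 ratios were formed with a pseudocount of 1 ppm after a filter at a mean of 1 ppm, in Python 3.11.15 with pandas 2.3.3, numpy 2.4.6 and, for a trend over transcript length, statsmodels 0.14.6, and the ratio code was tested on simulated data. For a name with several rows, the row with the highest mean was used. The members, gene lists and marker lists were chosen with earlier results of these data known. Named genes were the members, set background genes such as Stat2, Trim25 and Ubb, and up to 3 per list with the largest ratios; other names, among them the range ends and the receptor and kinase genes, were chosen after their values were seen. Likeness took the 5 nearest genes to the median and the 2 nearest to each member. A few items of the lists are not reported here. Alternatives covered the pseudocount, the filter, centring, ranks, length and rows sharing a name.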

Additional observations from a re-analysis of the deposited data

How the results depend on the processing

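No paired analysis was possible because the table has 1 column per group, and leaving out replicates was not run for the same reason. Over 9 alternatives to each of the 25 member ratios, 215 of 225 values kept their sign and moved by at most 0.2 on the log2 scale (ranks were compared by sign alone), 8 moved further without changing sign, and 2 changed sign. Those were Isg15 (-0.012) and Ube2l6 (-0.039) in the IL-10 response of wild type with the trend over transcript length subtracted. There the members' median, which is the Isg15 value, was also -0.012. A filter cannot change the ratio of a single gene, and summing rows that share a name left every member ratio as it was. These settings add to the 215 unchanged values without testing the ratios. All values that moved further or changed sign came from the pseudocount and length settings. The count of members at least 2-fold higher in the knockout was 0 with a pseudocount of 4 ppm, both with IL-10 and with mock, and 1 with IL-10 when the length trend was subtracted, where Usp18 stood at 0.996, just under the limit. With 4 ppm Isg15 had log2 ratios of 0.94 with IL-10 and 0.48 with mock, and Usp18 of 0.72 and 0.90. With no pseudocount, an alternative chosen after seeing the data, Usp18 had 1.30 and 1.49 and Isg15 had 1.53 with IL-10. With the length trend subtracted Isg15 had 0.51 with mock. The number of all genes past 2-fold in either direction also depended on these choices. For genotype with mock it was 49, or 75 with 0.25 ppm, 23 with 4 ppm, 103 with no pseudocount and 31 with a mean of at least 5 ppm. For genotype with IL-10 it was 77, or 49 with 4 ppm and 136 with none. For the difference between responses it was 15, or 30 with 0.25 ppm, 7 with 4 ppm, 51 with none and 8 with the 5 ppm filter. For IL-10 in wild type it was 55, or 92 with no pseudocount. The cause was not tested. Depth is unknown and limits every low value.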

Other observations

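The genes next to the members in the mm9 coordinates of the table, chosen after the data were seen, had genotype ratios on both sides of 0. The nearest row on each side of each member gave 10 neighbours, and their knockout to wild-type log2 ratios with IL-10 ran from -0.60 to 0.30 with a median of 0.05. With mock they ran from -0.80 to 0.46 with a median of 0.05. None passed 2-fold in any of the 5 comparisons, where at most 0.877% of all genes did upward and 0.105% downward. In some pairs the neighbour had the higher ratio. 6230427J02Rik, beside Uba7, had 0.30 with IL-10 and 0.46 with mock, where Uba7 had 0.28 and 0.11. That neighbour lay near 1 ppm, so its ratios rest on few units. It stood at 26.5 and 47 units in the knockout with IL-10 and mock, against 16.5 and 27 in wild type. Pigy, beside Herc6, had 0.31 with mock, where Herc6 had 0.11. The lowest was Serping1, which encodes the complement C1 inhibitor and lies beside Ube2l6. It stood at 165.5 units in the knockout with IL-10 and 126 in the knockout with mock, against 264 in wild type with IL-10 and 240 in wild type with mock.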
